A study of Mus musculus with 6 samples.

Results

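The genes described here mark the B lineage outside the immunoglobulin loci. The list holds 39 genes, all of them matched among the 39017 gene identifiers of the count table, and it was drawn up by known function at a time when earlier results of these data were known. By stage it has 9 genes of B-cell progenitors, 24 of mature B cells and 6 of plasma cells. They were followed in 6 RNA sequencing libraries of adherent marrow cells that the labels call F4/80+ CD169+ macrophages, 3 from old mice (more than 78 weeks) and 3 from young mice (3 weeks), and the comparison is old against young. All mice were wild-type BALB/c. Marrow came from crushed limb bones, non-adherent cells were removed, the adherent cells were expanded in medium with serum, and each library was made from 10000 cells. The labels do not state that each library had its own mouse, so the p-values speak only of the variation among these 6 libraries, which may be technical.

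B cells arise in the marrow from progenitors in which EBF1 and PAX5 set the lineage and the RAG recombinase cuts the antigen receptor genes. A surrogate light chain of VpreB and lambda5 tests the new heavy chain, and the mature cell then signals through the B-cell receptor with its CD79 chains. Plasma cells, the antibody-secreting end of the lineage, switch on a secretory programme and many home back to the marrow. Several genes on the list are also used by other cells of marrow. Of the 39, 22 are mainly restricted to lymphocytes (Pax5, Cd79a, Cd79b, Ms4a1, Cr2, Fcer2a, Cd22, Blk, Pou2af1, Fcmr, Fcrla, Fcrl1, Vpreb1, Vpreb3, Igll1, Rag1, Rag2, Dntt, Bank1, Tnfrsf13c, Tnfrsf17 and Jchain). The other 17 are known in stromal, myeloid or further lymphoid cells as well.

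Total counts were 43367734, 38030342 and 36136137 in old replicates 1, 2 and 3 and 34391206, 34597583 and 35813492 in young replicates 1, 2 and 3. Young replicate 3 stood apart, with 5.44% of its counts in Col1a1 and Col1a2, which encode type I collagen, against 1.80% to 3.00% in the other 5 libraries. Of 15 macrophage markers, 12 were lower and 1 was higher in old libraries, and their summed level was 4950 to 5340 CPM (counts scaled to sequencing depth) in old and 8820 to 10500 CPM in young libraries. CPM is scaled to the normalized library size throughout. The defining markers Adgre1 (F4/80) and Siglec1 (CD169) had at least 1364 counts in every library, so the markers behind the label were present. In bulk RNA, more or fewer cells of a type and more or less RNA per cell cannot be told apart.

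The B-lineage genes were higher in old libraries in 15 cases. Among tested members, those that rose most belong to mature B cells and plasma cells, but 7 of the 9 progenitor genes were not tested. Of the 39, those 15 passed and 2 were lower at an adjusted p of 0.05 (edgeR quasi-likelihood test, adjusted over 15567 genes), against 5.84% of all tested genes called higher and 4.70% called lower. DESeq2 called 16 members higher and limma-voom 15, against 8.55% and 6.06% of all tested genes. A further 12 were tested and not called, and 10 had too few counts to be tested. The filter on low counts asks for enough counts in any 3 libraries. Pou2af1, Tnfrsf13c, Fcmr, Blk, Derl3 and Fcrla met it in all 3 old libraries and not in all 3 young ones. These genes thus entered the test through the age in which they were high. Of the 22 lymphocyte-restricted genes 12 were tested, with 9 higher and 0 lower, and the other 10 were not tested. Among those 12, 0 were lower at an unadjusted p under 0.05 (edgeR) or called lower by DESeq2 or limma-voom. In the edgeR fit without the filter, untested Vpreb1 was lower, with a log2 fold change of -1.97. Its unadjusted p was 0.0349 and its adjusted p 0.221. In 3 of the 22 (Vpreb1, Fcrl1 and Tnfrsf17) every old library lay below every young one, and in 12 every old library lay above. With 1 library left out the restricted genes higher numbered 4 to 7. Of the 17 shared genes, 6 were higher and 2 lower, with 3 to 6 higher and 0 to 3 lower when 1 library was left out. In 19 of the 39 genes every old library lay above every young one, and in 9 every old library lay below, where 15.9% and 14.3% of tested genes did so.

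The count of higher members fell when a library was left out. It was 7, 8 and 8 without old replicate 1, 2 or 3, and 9, 11 and 13 without young replicate 1, 2 or 3. The 7 members called in all 6 of those fits were Cd79a, Ms4a1, Pou2af1, Tnfrsf13c, Mzb1, Sdc1 and Il7r. The count of lower members was 0 without any 1 old library or young replicate 2. It was 1 when young replicate 1 was removed and 3 when young replicate 3 was.

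**Figure D1:**
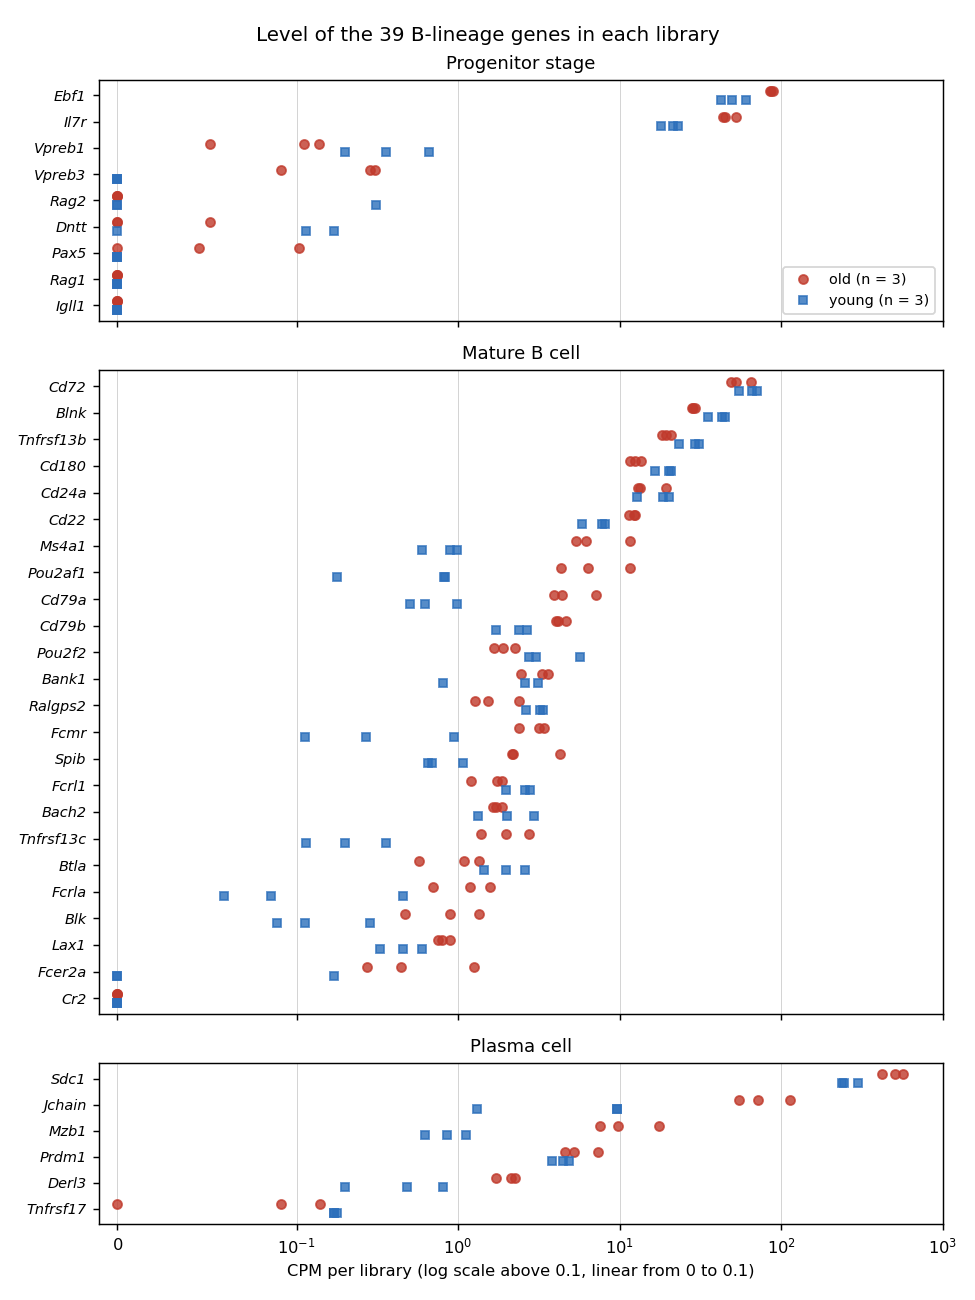
Each row is 1 of the 39 genes, grouped by stage, and each point is the CPM of 1 library (log axis above 0.1, linear below), with old libraries as circles and young libraries as squares. Jchain, Mzb1, Ms4a1, Pou2af1, Cd79a and Tnfrsf13c have 3 old points well to the right of the 3 young points, while Rag1, Igll1 and Cr2 sit at 0 in all 6 libraries.

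Start-site sequence was examined because many of these genes answer to shared B-lineage regulators. RefSeq start-site windows (GRCm38.p6, 250 bases before the start to 50 after it, some genes with more than 1) were found for 34 of the 39. They were searched on both strands for ATGCAAAT, the octamer of the POU factors Pou2f1 and Pou2f2, for CCCNNGGG, the core read by EBF1, for CAGGTG, an E-box that E2A proteins bind, and for GAGGAAG, a core of PU.1 sites. The E-box was in 16 of the 34 genes (47.1%), against 22.6% of all 27025 genes with a window. It was in 6 of the 11 higher members with a window (Cd79a, Cd22, Jchain, Fcmr, Derl3 and Tnfrsf13c), in 1 of 2 lower ones, in 4 of 11 tested and not called and in 5 of 10 untested. No window was found for Cd24a or for the higher members Blk, Cd79b, Ms4a1 and Mzb1. The octamer was in 2 of 34 (5.88%, against 1.97% of all genes), the EBF core in 17.6% against 15.4%, and the PU.1 core in 23.5% against 15.4%. These are letter matches in 1 window per start and not binding sites. Windows of 3 higher members with the E-box in capitals (on the reverse strand it reads CACCTG), and of Vpreb3 with the octamer in capitals (reverse strand), are given 5′ to 3′ on the strand of each gene. They lie at chr7:24897247-24897546 on the plus strand (Cd79a), chr15:82224331-82224630 on the minus strand (Tnfrsf13c), chr5:88527848-88528147 on the minus strand (Jchain) and chr10:75948050-75948349 on the plus strand (Vpreb3).
Cd79a: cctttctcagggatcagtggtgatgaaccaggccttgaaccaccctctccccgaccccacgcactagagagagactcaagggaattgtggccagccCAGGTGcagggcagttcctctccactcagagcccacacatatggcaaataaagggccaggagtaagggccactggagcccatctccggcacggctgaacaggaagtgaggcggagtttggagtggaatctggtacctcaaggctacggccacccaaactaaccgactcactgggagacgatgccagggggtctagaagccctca
Tnfrsf13c: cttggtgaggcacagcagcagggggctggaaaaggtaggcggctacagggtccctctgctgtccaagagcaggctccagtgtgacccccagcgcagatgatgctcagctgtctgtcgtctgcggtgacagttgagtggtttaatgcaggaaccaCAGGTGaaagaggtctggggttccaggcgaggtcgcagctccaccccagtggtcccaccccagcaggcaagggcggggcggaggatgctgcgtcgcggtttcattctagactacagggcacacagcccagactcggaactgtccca
Jchain: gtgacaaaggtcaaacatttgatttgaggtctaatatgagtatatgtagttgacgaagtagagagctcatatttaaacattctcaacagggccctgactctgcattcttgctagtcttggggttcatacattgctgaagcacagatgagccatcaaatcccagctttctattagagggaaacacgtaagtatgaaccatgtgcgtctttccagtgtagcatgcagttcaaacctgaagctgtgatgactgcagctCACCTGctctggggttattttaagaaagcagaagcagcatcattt
Vpreb3: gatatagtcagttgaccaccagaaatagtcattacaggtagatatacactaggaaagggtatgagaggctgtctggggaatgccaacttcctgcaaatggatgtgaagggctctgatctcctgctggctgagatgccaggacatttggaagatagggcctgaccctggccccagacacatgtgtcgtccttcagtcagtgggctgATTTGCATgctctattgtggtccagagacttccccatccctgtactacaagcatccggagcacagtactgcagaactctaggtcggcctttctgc
Counted from the start, with bases before it negative, the E-box begins at -154 in Cd79a, at -96 in Tnfrsf13c and at 6 in Jchain, and the octamer begins at -45 in Vpreb3. Tcf3, which encodes the E2A proteins and was picked after its values were seen, had 111 ± 4.60 CPM in old and 116 ± 17.9 CPM in young libraries (SD, n = 3 each), a log2 fold change of -0.06 with SE 0.12 (edgeR adjusted p = 0.826).

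Genes of the progenitor stage comprised a pair that rose and 7 with too few counts to test. Ebf1, the transcription factor that opens the B-cell programme and that marrow stromal and fat precursor cells use as well, had 85.3, 86.7 and 88.5 CPM in old and 42.7, 49.4 and 60.3 CPM in young libraries. The ages did not overlap, and the log2 fold change was 0.77 with SE 0.13 (edgeR adjusted p = 0.0114). Leaving out old replicate 1 (adjusted p = 0.0509) or old replicate 2 (adjusted p = 0.0518) ended the call on Ebf1, and the other 4 fits kept it. Without either of those libraries 1 of the 9 progenitor genes was higher. Il7r, the receptor for the cytokine that B-cell progenitors need to grow, had 44.9, 43.7 and 52.7 CPM in old and 21.3, 23.1 and 18.1 CPM in young libraries. The log2 fold change of Il7r was 1.18 with SE 0.13 (edgeR adjusted p = 0.00230), and the ages stood well apart.

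The other progenitor genes gave few counts. Rag1, the catalytic subunit of the recombinase, and Igll1, which encodes lambda5, had 0 counts in every library. Over 117534213 old and 104802281 young counts, 0 allows up to 0.0253 CPM in old and 0.0288 CPM in young libraries, for counting error only. Rag2 had 11 counts, all in young replicate 2. Dntt, the polymerase that adds bases at receptor joints, had 2 counts in old libraries, all in replicate 2, and 4, 6 and 0 in young libraries. Pax5, the factor that holds cells to the B lineage, had 2, 4 and 0 counts in old and 0 in young libraries. Most of the few Rag2 and Dntt counts were thus in young libraries, and all those of Pax5 were in old libraries.

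Both VpreB genes were also too low for the test, and they lay on opposite sides. Vpreb1, the VpreB part of the surrogate light chain, had 6, 2 and 4 counts in old and 23, 7 and 12 counts in young libraries. The pooled ratio, scaled to library size, was 3.98-fold in young over old, and its 95% counting interval (exact, Clopper-Pearson) ran from 2.06 to 8.31. Another gene model, Top3b, covers 9.01% of the exon length of Vpreb1. Like overlaps were found for Cd22 (9.5%, Gm29439) and Pax5 (8.6%, 5730488B01Rik). Vpreb3, which binds newly made receptor chains inside the cell, had 4, 11 and 11 counts in old libraries and 0 in young libraries. With the young libraries together set at 3 counts, the most that a count of 0 allows, the pooled old level was 7.62-fold higher. That figure takes the 26 old counts as exact and leaves out the spread between libraries. Without the filter on low counts the edgeR adjusted p was 0.221 for Vpreb1 and 0.0914 for Vpreb3, so neither difference passed.

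The mature B stage has the most genes, and 9 of its 24 (37.5%) were higher, 2 lower, 11 tested and not called and 2 untested. Over all tested genes 5.84% were called higher and 4.70% lower, whereas the 37.5% is a share of listed genes, tested or not. Of the 9, Pou2af1, Tnfrsf13c, Fcmr and Blk met the low-count filter through the old libraries, in which they were high. The higher count was 4 without any 1 old library, 5 without young replicate 1 and up to 7 otherwise, and the lower count was 0 without any 1 old library or young replicate 2, 1 without young replicate 1 and 3 without young replicate 3. The receptor's signalling chain Cd79a was among the 9. It had 3.90, 4.41 and 7.19 CPM in old and 0.628, 0.990 and 0.505 CPM in young libraries. The ages stood far apart, and the log2 fold change was 2.86 with SE 0.36 (edgeR adjusted p = 0.00382). Its partner Cd79b, with which it forms a dimer, had 4.04, 4.15 and 4.67 CPM in old and 2.65, 2.38 and 1.72 CPM in young libraries. The log2 fold change of Cd79b was 0.93 with SE 0.22 (edgeR adjusted p = 0.0392). The call on Cd79b was lost in 5 fits with 1 library left out and held only without young replicate 3 (adjusted p up to 0.125). Per kilobase of exon, Cd79a and Cd79b had mean levels of 3.55 and 3.00 CPM per kb in old libraries and 0.486 and 1.57 CPM per kb in young libraries, and the difference between the chains was not tested.

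Other surface receptors of mature B cells went different ways, with Ms4a1, Tnfrsf13c, Fcmr and Cd22 higher, Cd180 lower, and Tnfrsf13b, Fcrl1, Btla, Cd72 and Cd24a not called. Ms4a1, which encodes the antibody target CD20, had 6.18, 5.37 and 11.6 CPM in old and 0.885, 0.990 and 0.594 CPM in young libraries, a log2 fold change of 3.22 with SE 0.38 (edgeR adjusted p = 0.00283). Tnfrsf13c, the BAFF receptor that keeps mature B cells alive, had 1.39, 1.97 and 2.75 CPM in old and 0.114, 0.198 and 0.357 CPM in young libraries. Tnfrsf13c had a log2 fold change of 3.18 with SE 0.49 (edgeR adjusted p = 0.00855), and the ages did not overlap. Fcmr, the Fc receptor for IgM, had 2.40, 3.17 and 3.39 CPM in old and 0.942, 0.113 and 0.268 CPM in young libraries. Young replicate 1 lay well above the other young libraries for Fcmr. The difference was 2.75 on the log2 scale with SE 0.64 (edgeR adjusted p = 0.0384), and it was 3.95 without young replicate 1, the only library whose removal kept the call (adjusted p up to 0.122 otherwise). Cd22, an inhibitory receptor that binds sialic acid, had 12.4, 12.5 and 11.4 CPM in old and 5.85, 8.12 and 7.82 CPM in young libraries. It was 1.67-fold higher (edgeR adjusted p = 0.0296), a call lost without any 1 old library or young replicate 1 (adjusted p up to 0.114).

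Of the mature-stage genes that act inside the cell, Pou2af1, Spib and Blk were higher, Blnk was lower, and Pou2f2, Bach2, Ralgps2, Bank1, Fcrla and Lax1 were not called. Pou2af1, the B-cell coactivator that works with the octamer factors, had 4.31, 6.39 and 11.6 CPM in old and 0.828, 0.820 and 0.178 CPM in young libraries. The log2 fold change was 3.59 with SE 0.59 (edgeR adjusted p = 0.0104), and young replicate 3 had the lowest level of all 6 libraries. Spib, an ETS factor of B cells and plasmacytoid dendritic cells, had 2.15, 2.18 and 4.30 CPM in old and 0.685, 1.08 and 0.654 CPM in young libraries. The Spib log2 fold change was 1.83 with SE 0.38 (edgeR adjusted p = 0.0263). The Spib call was lost without any 1 old library or young replicate 1 (adjusted p up to 0.0915). Blk, a Src-family kinase next to the receptor, had 0.890, 1.35 and 0.472 CPM in old and 0.285, 0.113 and 0.0892 CPM in young libraries. On the log2 scale Blk differed by 2.45 with SE 0.62 (edgeR adjusted p = 0.0495). No fit with 1 library removed kept the call (adjusted p 0.0596 to 0.188 over the 6), nor did limma-voom (adjusted p = 0.0599), and the log2 fold change was 3.12 without young replicate 1. Siglech, a defining marker of plasmacytoid dendritic cells, had 5, 0 and 0 counts in old and 6, 5 and 0 in young libraries.

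The 2 members that fell are both active in myeloid cells too. Blnk, the adaptor that links the B-cell receptor kinase to its targets and is also present in macrophages, had 28.0, 29.1 and 28.3 CPM in old and 35.3, 43.3 and 44.8 CPM in young libraries. It had a log2 fold change of -0.53 with SE 0.11 (edgeR adjusted p = 0.0271), lost without any 1 old library or young replicate 2 (adjusted p up to 0.110). Cd180, a Toll-like receptor relative on B cells and myeloid cells, had 13.6, 12.5 and 11.5 CPM in old and 20.1, 20.9 and 16.5 CPM in young libraries. It had a log2 fold change of -0.61 with SE 0.14 (edgeR adjusted p = 0.0324), lost in 5 fits and held only without young replicate 3 (adjusted p up to 0.120). The ages did not overlap for either gene. Macrophage markers were lower in the same old libraries, with 12 of 15 called lower and none at 0 in all 6 libraries, and their part in these 2 results was not tested. Tnfrsf13b, encoding TACI, a receptor for BAFF and APRIL, had 18.3, 20.7 and 19.4 CPM in old and 29.1, 31.2 and 23.2 CPM in young libraries. Its log2 fold change of -0.52 with SE 0.13 missed the threshold with edgeR (adjusted p = 0.0545) and passed it with DESeq2 (adjusted p = 0.00889) and without young replicate 3 (edgeR adjusted p = 0.00869).

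Not all genes restricted to B cells passed the test as Cd79a did. Fcrl1, an Fc receptor-like protein of mature B cells, had 1.21, 1.87 and 1.75 CPM in old and 1.97, 2.60 and 2.79 CPM in young libraries, a log2 fold change of -0.61 with SE 0.27 (edgeR adjusted p = 0.224). Bank1, a B-cell scaffold protein, had 2.46, 3.32 and 3.58 CPM in old and 2.60, 3.14 and 0.802 CPM in young libraries, and the ages overlapped (log2 fold change 0.52, SE 0.46, edgeR adjusted p = 0.576). Fcrla, an intracellular Fc receptor-like protein, had 1.19, 0.701 and 1.58 CPM in old and 0.0856, 0.453 and 0.0594 CPM in young libraries. Its log2 fold change of 2.51 with SE 0.74 was not called by edgeR (adjusted p = 0.0808) and was called by DESeq2 (adjusted p = 0.0172), by limma-voom (adjusted p = 0.0491) and, at 3.93, without young replicate 2 (edgeR adjusted p = 0.0210). Fcer2a, the low-affinity IgE receptor CD23 of follicular B cells, had 12, 17 and 45 counts in old and 0, 6 and 0 in young libraries. Most of its old counts were in replicate 3, and its pooled ratio was 10.8-fold in old over young, with a counting interval from 4.75 to 30.5 that leaves out the spread between libraries. It was too low for the test, and without the filter on low counts it did not pass (edgeR adjusted p = 0.180). Cr2, the complement receptor CD21 that follicular and marginal zone B cells carry, had 0 counts in every library.

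The remaining 7 mature-stage genes are shared with other cells and were not called. Ralgps2, Btla and Pou2f2 had every old library below every young one, at 0.565, 0.499 and 0.508 times the young level (edgeR adjusted p = 0.128, 0.174 and 0.112). Bach2, the repressor that delays plasma cell fate, had a log2 fold change of -0.27 (edgeR adjusted p = 0.685), whose sign turned without young replicate 2 (0.056). Cd72 and Cd24a had log2 fold changes of -0.20 and -0.17 (edgeR adjusted p = 0.460 and 0.733). Tesk1 covers 41.6% of the exon length of Cd72, so reads of that pair may be mixed. Lax1, an adaptor of lymphocytes, had every old library above every young one at a log2 fold change of 0.82 (edgeR adjusted p = 0.240).

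**Figure D2:**
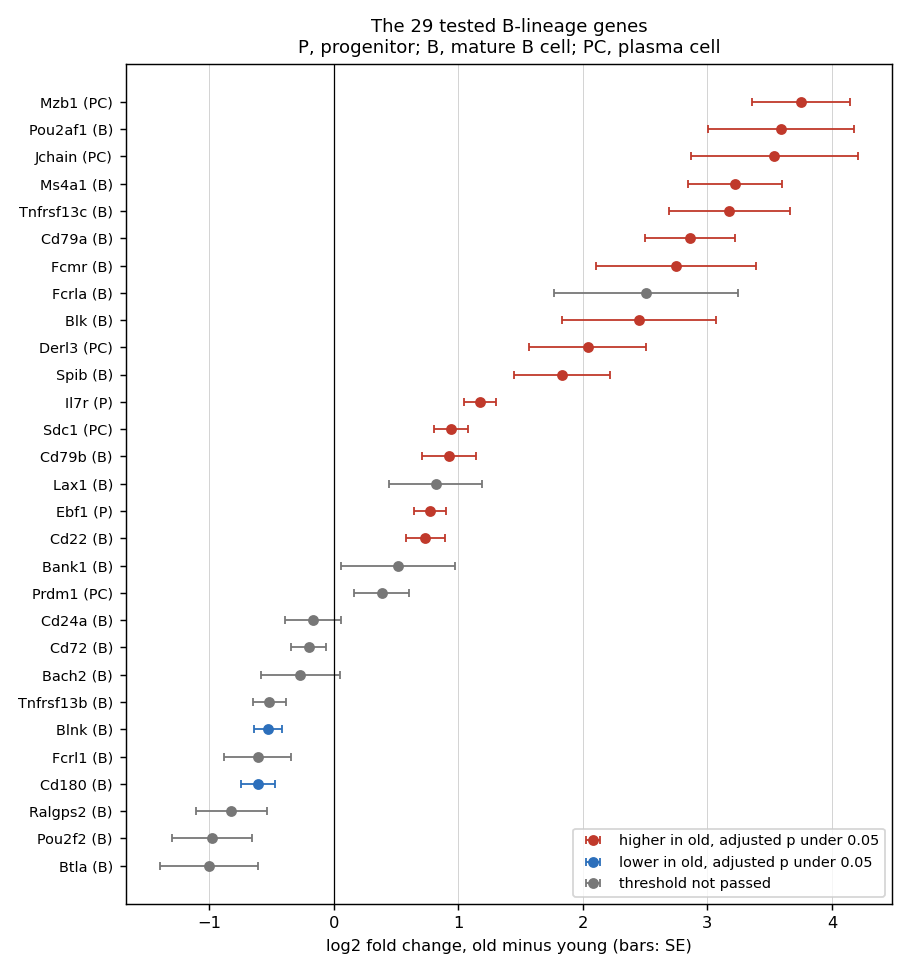
The log2 fold change of each of the 29 tested genes (old minus young, bars show 1 SE) is drawn by size, with the stage in brackets. The 6 largest increases, Mzb1, Pou2af1, Jchain, Ms4a1, Tnfrsf13c and Cd79a, lie between 2.86 and 3.75, and the lowest is Btla, at 0.499 times the young level, which was not called.

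Plasma cell genes rose in 4 of 6 listed cases (66.7%), against 5.84% of all tested genes called higher. Derl3, among those 4, met the low-count filter through the old libraries. The plasma cell genes had 0 lower by edgeR, DESeq2 or limma-voom or at an unadjusted p under 0.05, with Tnfrsf17 not tested. The higher count was 3 without old replicate 2, 4 without young replicate 3 and 2 without any 1 of the other 4 libraries. Jchain, the joining chain that links IgM and IgA units into polymers, had 71.7, 54.9 and 114.0 CPM in old and 9.70, 9.65 and 1.31 CPM in young libraries. Old replicate 3 was the highest library and young replicate 3 the lowest, far under the other young ones. The log2 fold change of Jchain was 3.54 with SE 0.67 (edgeR adjusted p = 0.0179). Its call was lost without old replicate 1, old replicate 3, young replicate 1 or young replicate 2 (adjusted p up to 0.0578), and without young replicate 3 the log2 fold change was 3.05 (adjusted p = 0.00680). Mzb1, a chaperone of the endoplasmic reticulum that assists antibody assembly, had 7.55, 9.79 and 17.6 CPM in old and 1.11, 0.849 and 0.624 CPM in young libraries. Its log2 fold change of 3.75 with SE 0.39 (edgeR adjusted p = 0.00199) was the largest of the tested members. The gene model SPATA24 covers 57.2% of the exon length of Mzb1, so part of its reads cannot be placed with certainty.

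The rest of the plasma cell genes differed in kind. Derl3, which helps clear misfolded proteins from the endoplasmic reticulum, had 1.71, 2.26 and 2.14 CPM in old and 0.200, 0.481 and 0.802 CPM in young libraries, a log2 fold change of 2.04 with SE 0.47 (edgeR adjusted p = 0.0365). Of the 6 fits with a library removed, the one without young replicate 3 kept the call on Derl3, and the other 5 did not (adjusted p up to 0.130). Sdc1, encoding CD138, marks plasma cells in marrow and is also made by epithelial and connective tissue cells. It was the most abundant member in every library, at 424, 505 and 567 CPM in old and 244, 238 and 298 CPM in young libraries, and it held 43.7% to 56.0% of the members' counts per library. The log2 fold change of Sdc1 was 0.94 with SE 0.14 (edgeR adjusted p = 0.00672). Prdm1, encoding the plasma cell regulator Blimp-1 that macrophages and T cells use too, had 7.33, 5.25 and 4.61 CPM in old and 4.45, 4.89 and 3.80 CPM in young libraries, which overlap (log2 fold change 0.39, edgeR adjusted p = 0.355). Tnfrsf17, encoding BCMA, the receptor on which marrow plasma cells depend, had 4, 0 and 5 counts in old and 6 in each of the young libraries. The pooled ratio of Tnfrsf17 was 2.28-fold in young over old, with a counting interval from 0.971 to 5.75 that includes equality.

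**Figure D3:**
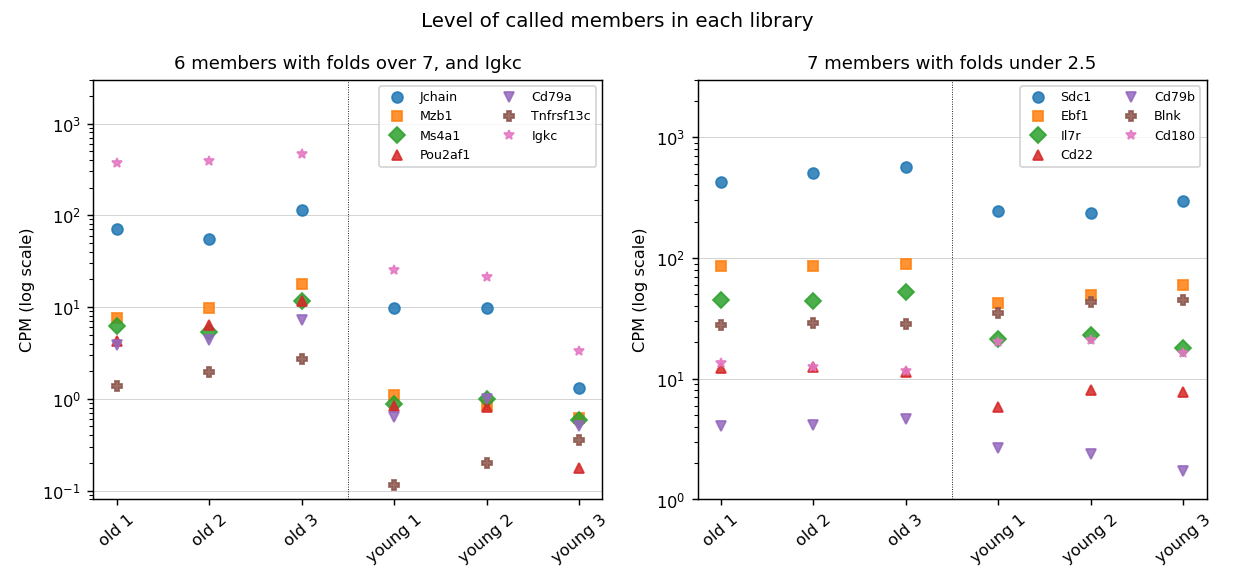
CPM per library on a log axis is shown for the 6 called members with folds over 7 beside the kappa light chain gene Igkc (left) and for the 7 called members with folds under 2.5 (right). On the left, Jchain, Pou2af1 and Igkc in young replicate 3 lie far under the other young libraries (Jchain 1.31 against 9.65 and 9.70 CPM), while on the right the libraries of each age lie close together.

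Per kilobase of exon, Sdc1 had the highest level of the members in both ages. In old libraries the mean level was 131 CPM per kb for Sdc1, 31.9 for Jchain, 16.3 for Cd72, 10.1 for Il7r and 9.60 for Mzb1. In young libraries it was 68.3 CPM per kb for Sdc1, 18.7 for Cd72, 9.82 for Tnfrsf13b, 6.86 for Blnk and 6.64 for Cd24a. Jchain stood second in old libraries and ninth in young libraries, where it had 2.74 CPM per kb. The summed level of the 22 lymphocyte-restricted genes was 130 ± 40.2 CPM in old and 25.0 ± 7.10 CPM in young libraries (SD, n = 3 each), and without Jchain it was 41.0, 46.2 and 61.8 CPM in old and 17.8, 20.9 and 15.7 CPM in young libraries. The summed level of the 17 shared genes was 707 to 873 CPM in old and 486 to 558 CPM in young libraries. All 39 members summed to a mean of 923 CPM in old and 544 CPM in young libraries. The restricted genes thus took the smaller share of the members' signal in both ages, and a larger share in old than in young libraries.

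The old libraries differed among themselves. Old replicate 3 had the highest CPM of the 3 for 12 of the 15 higher members, old replicate 2 for the other 3 (Cd22, Blk and Derl3), and old replicate 1 for 0. The excess of old replicate 3 was wide for Ms4a1, Pou2af1, Mzb1, Spib, Jchain and Cd79a and small for Ebf1 and Cd79b. The 3 most abundant immunoglobulin constant genes were all highest in old replicate 3, and in young replicate 3 they were lowest or at 0. Igkc had 371, 395 and 466 CPM in old and 25.5, 21.3 and 3.30 CPM in young libraries, and the IgM heavy chain gene Ighm had 133, 172 and 251 CPM in old and 49.7, 60.1 and 45.8 CPM in young libraries. Igha, the IgA heavy chain gene, had 35.5, 17.7 and 69.4 CPM in old and 0, 0.538 and 0 CPM in young libraries. Over the 9 immunoglobulin constant genes matched of 13 listed, the summed level was 558 to 817 CPM in old and 51.1 to 83.1 CPM in young libraries.

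Markers of other cell types were read beside these results. Of 25 T and NK cell markers, 1 was higher and 1 lower (0 to 1 and 1 to 3 with 1 library left out), with summed levels of 25.3 to 46.1 CPM in old and 33.6 to 69.0 CPM in young libraries. Cd3e, a defining T-cell gene that bears on Il7r, Btla, Lax1 and Bach2, had 2, 11 and 52 counts in old and 7, 33 and 0 in young libraries. Of 13 stromal markers, which bear on Ebf1 and Sdc1, 2 were higher and 3 lower (2 to 3 and 1 to 2 with 1 library left out), with summed levels of 23700 to 29900 CPM in old and 31600 to 70300 CPM in young libraries. Of 11 plasmacytoid dendritic cell markers, which bear on Spib, 1 was higher and 4 lower, with 1 to 2 higher and 0 to 4 lower when 1 library was left out, and Cd209d was at 0. Markers of some cells outside the B lineage were also higher in old libraries. Of 9 megakaryocyte markers 5 were higher and 0 lower, with summed levels of 238 to 338 CPM in old and 50.5 to 88.5 CPM in young libraries. Of those 5, Pf4 and Selp were called in all 6 fits with 1 library left out, Itga2b and Gp1ba were not called without old replicate 1 or 2 or young replicate 1 or 3, and Ppbp was not called without young replicate 3. Of 10 mast cell and basophil markers 5 were higher and 0 lower, with summed levels of 79.0 to 137 CPM in old and 31.0 to 42.6 CPM in young libraries. Cpa3 and Fcer1a were called in all 6 such fits, and Mcpt8, Ms4a2 and Gata2 were not called without any 1 old library or young replicate 2. In both lists 0 were lower by DESeq2, by limma-voom or at an unadjusted p under 0.05. The part of these cells in the results was not tested.

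Other genes of the B-cell pathway, such as signalling partners, regulators and niche factors, formed a list of 70 of which 69 were matched and 67 tested, and they did not share one direction. Of the 69, 12 (17.4%) were higher and 14 lower in old libraries, against 5.84% of all tested genes called higher and 4.70% called lower. The median log2 fold change was -0.02 over those tested and -0.01 over all tested genes. The count of higher genes was 5 to 11 and of lower genes 4 to 18 when 1 library was left out, with 5 to 7 higher without any 1 old library or young replicate 1, and 4 to 8 lower without any 1 library other than young replicate 3. Siglecg, an inhibitory receptor of B cells related to Cd22, had 16.4, 16.3 and 16.6 CPM in old and 2.57, 3.20 and 3.27 CPM in young libraries. Its log2 fold change was 2.45 with SE 0.14 (edgeR adjusted p = 0.000422), and the ages did not overlap.

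The other 5 genes of that list with the smallest p were Tnfsf13, Cxcl12, Kitl, S1pr1 and Mef2c. Tnfsf13, which encodes APRIL, a ligand of the receptors made by Tnfrsf13b and Tnfrsf17, had 4.92 ± 0.438 CPM in old and 0.443 ± 0.191 CPM in young libraries (log2 fold change 3.46, SE 0.34, edgeR adjusted p = 0.00159, n = 3 each). The read-through model Tnfsfm13 covers 60.0% of its exon length. Cxcl12, the stromal chemokine that holds B-cell progenitors and plasma cells in the marrow, had 1511 ± 97.4 CPM in old and 589 ± 109 CPM in young libraries (edgeR adjusted p = 0.00224). Kitl, the stem cell factor gene, had 135 ± 15.9 CPM in old and 54.0 ± 6.50 CPM in young libraries (edgeR adjusted p = 0.00142). S1pr1, a receptor that guides lymphocytes out of tissue and is also made by endothelium, had 610 ± 15.5 CPM in old and 301 ± 14.0 CPM in young libraries (edgeR adjusted p = 0.000568). Mef2c, a transcription factor of B cells, myeloid cells and muscle, fell, with 34.9 ± 2.00 CPM in old and 83.8 ± 15.6 CPM in young libraries (edgeR adjusted p = 0.00251). These calls held in all 6 fits with 1 library left out. Tnfsf13b, which encodes BAFF and was picked after its values were seen because Tnfrsf13c binds it, had 1.33 ± 0.237 CPM in old and 1.65 ± 0.617 CPM in young libraries (edgeR adjusted p = 0.667). Il7, the ligand of Il7r and likewise picked after its values were seen, had 9.86, 10.7 and 11.3 CPM in old and 6.59, 8.77 and 7.49 CPM in young libraries, and its log2 fold change of 0.48 with SE 0.15 did not pass (edgeR adjusted p = 0.0980).

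**Figure D4:**
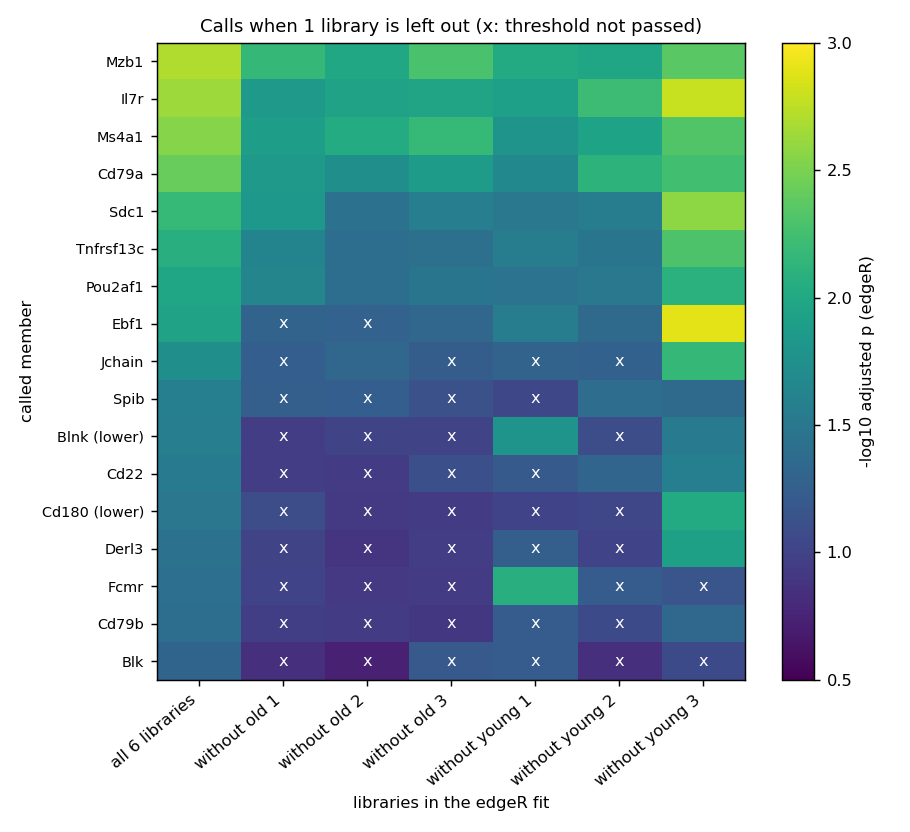
Each row is 1 of the 17 called members, each column an edgeR fit with all 6 libraries or with 1 left out, and colour gives -log10 of the adjusted p, with a cross where the threshold of 0.05 was not passed. The top 7 rows, from Mzb1 to Pou2af1, have no cross, and Blk has one in each of the 6 columns with a library left out.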

How the data were processed

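RNA of 10000 cells per library was amplified with a low-input kit, fragmented and sequenced as paired reads of 100 bp, per the labels' protocols. The deposited values are raw counts of reads per Ensembl gene, and build mm10, the aligners HISAT2 2.1.0 and STAR 2.6.1a, and StringTie 1.3.4d, SAMtools 1.9, Picard 2.18.15, Trim Galore 0.50 and cutadapt 1.18 are named without roles in the submitters' processing notes. Which tool counted the reads, with which annotation and strand setting, is not given in the sources used here, so overlapping genes may share reads. PCR copies were not told apart by molecular identifiers, and intervals and floors cover counting error only.

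Symbols, positions and exon overlaps came from GENCODE M21 (mm10), and start-site windows from RefSeq (GRCm38.p6). Counts were fitted in R 4.3.3 with edgeR 4.0.16 (filterByExpr, TMM, robust quasi-likelihood test) over 15567 genes, with Benjamini-Hochberg adjustment at 0.05. The SE was derived from the log2 fold change and its F statistic (size over root F). CPM uses TMM-scaled library sizes. Alternatives used DESeq2 1.42.0 and limma 3.58.1, other filters, a replicate block and leaving out each library. In simulated data with 15567 genes, 50 genes drawn at random were changed by each of 4 folds, fewer than were called in the data. The old against young fit recovered 20% of genes changed 1.5-fold, 48% changed 2-fold, 84% changed 4-fold and 94% changed 8-fold. It made 11 false calls, and these rates are not specific to the members.

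All 39 members are named, and of the pathway list the 6 genes with the smallest p (1 further gene of the naming rule is not reported here), the 3 most abundant immunoglobulin constant genes, and other genes only where they bear on a member, chosen after their values were seen. The members, stages and lists were chosen with earlier results of these data known.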

Additional observations from a re-analysis of the deposited data

How the results depend on the processing

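Scaling by DESeq2 size factors or upper-quartile factors and a non-robust fit changed no call of a tested member. Of 403 refits of single members, 345 kept their direction and side of the threshold, 52 lost the call, 5 gained one and 1 turned sign, which was Bach2 (log2 fold change -0.51 to 0.056 with 1 library left out, 0.056 without young replicate 2). With 1 library left out, members higher ranged from 7 to 13 and lower from 0 to 3. Progenitor members higher ranged from 1 to 2, mature B members higher from 4 to 7 and lower from 0 to 3, and plasma cell members higher from 2 to 4. Other B-cell pathway genes ranged from 5 to 11 higher and 4 to 18 lower, and all genes from 418 to 1459 higher and 294 to 1168 lower. DESeq2 called 1137 genes lower over the whole table, against 731 with edgeR.

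With the replicate number as a block, members higher numbered 9, mature B members higher 4, and other B-cell pathway genes 7 higher and 9 lower. The calls not made with the block were Jchain (adjusted p = 0.0928), Cd79b (0.0868), Blk (0.0697), Fcmr (0.0624), Spib (0.0608) and Cd22 (0.0555). Same-numbered libraries correlated at 0.088, 0.034 and 0.083 in their deviations from the age means, each library best with its own number, and the labels do not say that the numbers mark a shared batch. Blk lost its call without the filter on low counts (adjusted p = 0.0636), and a filter of 50 counts in 3 libraries gave no value for Blk, Fcrla or Lax1. Low counts kept 10 members out of the test, with at most 45 counts in a library, and 3 of them had 0 counts in every library. Whether depth or absence of expression lies behind this was not tested.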
